A study of Mus musculus with 6 samples.

Results

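The genes described here encode the MHC class I presentation route of macrophages. They are the classical heavy chain genes H2-K1 and H2-D1, their shared light chain B2m, the peptide transporter and loading genes Tap1, Tap2 and Tapbp, the immunoproteasome subunit genes Psmb8, Psmb9 and Psmb10, and Nlrc5. The members were taken by name, each symbol was matched to 1 Ensembl ID, and all 10 of the 10 were found among 55421 genes of the count table. All 10 also passed the filter on low counts, which left 13588 genes.

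RNA sequencing was done on primary bone marrow-derived macrophages, grown in culture from mouse marrow. The cells called KO here were Tmem175flox/flox Lyz2-Cre+/- and carry Tmem175-/- as their genotype label (n = 3 libraries), and the others were WT (n = 3). Cre is driven from the Lyz2 locus, which is active in myeloid cells, and no library with Cre or with floxed alleles alone is among the 6, so the floxed locus, Cre and strain background cannot be told apart. The labels name no interferon or other stimulus and give no age, and the design text describes culture wells and names no separate animals, so a p-value here reflects how much wells varied, possibly for technical reasons.

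Class I molecules show peptides from proteins made inside the cell to CD8 T cells. Peptides are cut by the proteasome, in which interferon-inducible subunits can take the place of the constitutive catalytic subunits, and are then pumped into the endoplasmic reticulum by the TAP transporter and loaded with the help of tapasin. NLRC5 is the transactivator of class I genes, as CIITA is for class II genes, and acts through a promoter module with S, X and Y boxes. Interferon raises most of these genes together. TMEM175, the targeted gene, is a cation channel of late endosomes and lysosomes.

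The promoters of H2-K1, H2-D1, B2m and Tap1 are printed below because the members are known as a co-regulated set. Some other windows of the set hold fewer of the elements marked here, or none. The windows run from 250 bases before to 50 after the start site, come from RefSeq on GRCm38.p6, and were found for 8 of the 10 members. Capitals mark exact matches on either strand to TGACG (the core of the X2 element), CCAAT (the Y box), to a pair of patterns for the core bound by interferon regulatory factors, and to a kB site. The first core pattern is GAAA repeated after any 2 bases, the second is GAANNGAAA, and the kB site is GGGG and TCCC with any 2 bases between them. GAANNGAAA and this kB site were chosen after the sequences had been seen. The H2-K1 window is chr17:34000298-34000597, minus strand, that of H2-D1 is chr17:35262844-35263143, plus strand, that of B2m is chr2:122147437-122147736, plus strand, and that of Tap1 is chr17:34187306-34187605, plus strand.
H2-K1: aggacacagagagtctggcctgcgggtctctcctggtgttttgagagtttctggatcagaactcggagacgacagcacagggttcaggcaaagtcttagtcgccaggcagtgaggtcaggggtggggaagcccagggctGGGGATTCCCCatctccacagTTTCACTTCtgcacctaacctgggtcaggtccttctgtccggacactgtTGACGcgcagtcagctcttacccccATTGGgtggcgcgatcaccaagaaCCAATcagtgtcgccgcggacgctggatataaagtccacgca
H2-D1: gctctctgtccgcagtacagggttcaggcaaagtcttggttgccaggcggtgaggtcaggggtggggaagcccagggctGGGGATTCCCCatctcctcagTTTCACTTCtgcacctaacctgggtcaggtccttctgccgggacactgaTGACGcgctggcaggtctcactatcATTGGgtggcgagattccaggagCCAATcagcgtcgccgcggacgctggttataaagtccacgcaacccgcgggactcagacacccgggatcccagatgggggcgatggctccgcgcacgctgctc
B2m: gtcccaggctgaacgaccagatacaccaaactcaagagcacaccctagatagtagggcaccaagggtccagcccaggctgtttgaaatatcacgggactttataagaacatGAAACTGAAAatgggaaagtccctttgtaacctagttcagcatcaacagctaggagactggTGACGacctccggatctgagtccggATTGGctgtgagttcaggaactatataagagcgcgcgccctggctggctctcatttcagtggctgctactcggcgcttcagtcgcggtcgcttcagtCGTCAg
Tap1: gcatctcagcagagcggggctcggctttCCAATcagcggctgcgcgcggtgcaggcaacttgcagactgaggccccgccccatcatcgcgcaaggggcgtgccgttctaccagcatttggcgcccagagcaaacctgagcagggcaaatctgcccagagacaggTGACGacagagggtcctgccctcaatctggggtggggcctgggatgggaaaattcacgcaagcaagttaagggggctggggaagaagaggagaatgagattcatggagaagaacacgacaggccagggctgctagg

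H2-K1 and H2-D1 carry the same run of elements in the same order: a kB site, an interferon regulatory factor core in reverse, TGACG and then a reversed Y box. Their windows were 89.5% identical over 239 aligned bases. In H2-K1, H2-D1 and B2m, which lies on another chromosome, the start of TGACG and the start of ATTGG, the reversed Y box, are 25 bases apart. A spacing of exactly 25 bases was found in the promoters of 16 genes, 0.0592% of 27025 windows, and those 16 held 1 further H2 gene, the class Ib gene H2-M3. The spacing was looked for after the sequences had been seen. TGACG alone was in 21% of all windows, CCAAT in 37.9%, GAANNGAAA in 7.56%, the repeated GAAA, which B2m holds, in 3.49% and the kB site in 1.62%.

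Tap1 and Psmb9 are transcribed away from each other out of one short region, and 275 of the 300 bases in their windows are the same bases read on opposite strands. That stretch holds TGACG and CCAAT, but no match to the patterns above for interferon regulatory factors or kB. Of the windows not printed, those of Psmb8 and Psmb10 held none of the patterns marked by capitals, and that of Tapbp held only CCAAT. The interferon-gamma activated site TTCNNNGAA, in 8.47% of all windows, matched once, in the Psmb8 window, and a stricter kB site, GGGA and TTCCC with any 1 base between them, was in 0.329% and matched in none of the 8. Matches are descriptions of letters in these windows and do not show binding.

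The libraries held 25979430 to 31542741 counts in KO and 24179548 to 25916709 in WT macrophages. Levels are given as TMM-scaled CPM, the count divided by the scaled library total and multiplied to a fixed size. Tmem175 stood at 12.1 to 14.3 CPM in KO and 32.8 to 33.4 CPM in WT libraries (log2 fold change -1.33, SE 0.07, adjusted p = 6.01e-05, edgeR's quasi-likelihood test with Benjamini-Hochberg adjustment), and Lyz2 was lower in KO as well (-0.89, SE 0.08, adjusted p = 0.00415). The macrophage marker Adgre1, which encodes F4/80, stood at 2594, 2572 and 2820 CPM in KO and at 2482, 2583 and 2705 CPM in WT libraries, and all 8 macrophage markers examined were above the filter.

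None of the 10 class I and immunoproteasome genes differed between KO and WT macrophages at an adjusted p under 0.05, where 0.103% of all tested genes were called. At an unadjusted p under 0.05 the count was also 0 of 10, against 5.44% of all tested genes, and DESeq2's Wald test and limma-voom called 0 of 10 after adjustment. The KO and WT libraries overlapped for every one of the 10, whereas they did not overlap for 10.8% of all tested genes. Fitted levels in KO were 88.8% to 99.4% of those in WT. The members' median log2 fold change was -0.060, against -0.0009 over all tested genes.

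**Figure D1:**
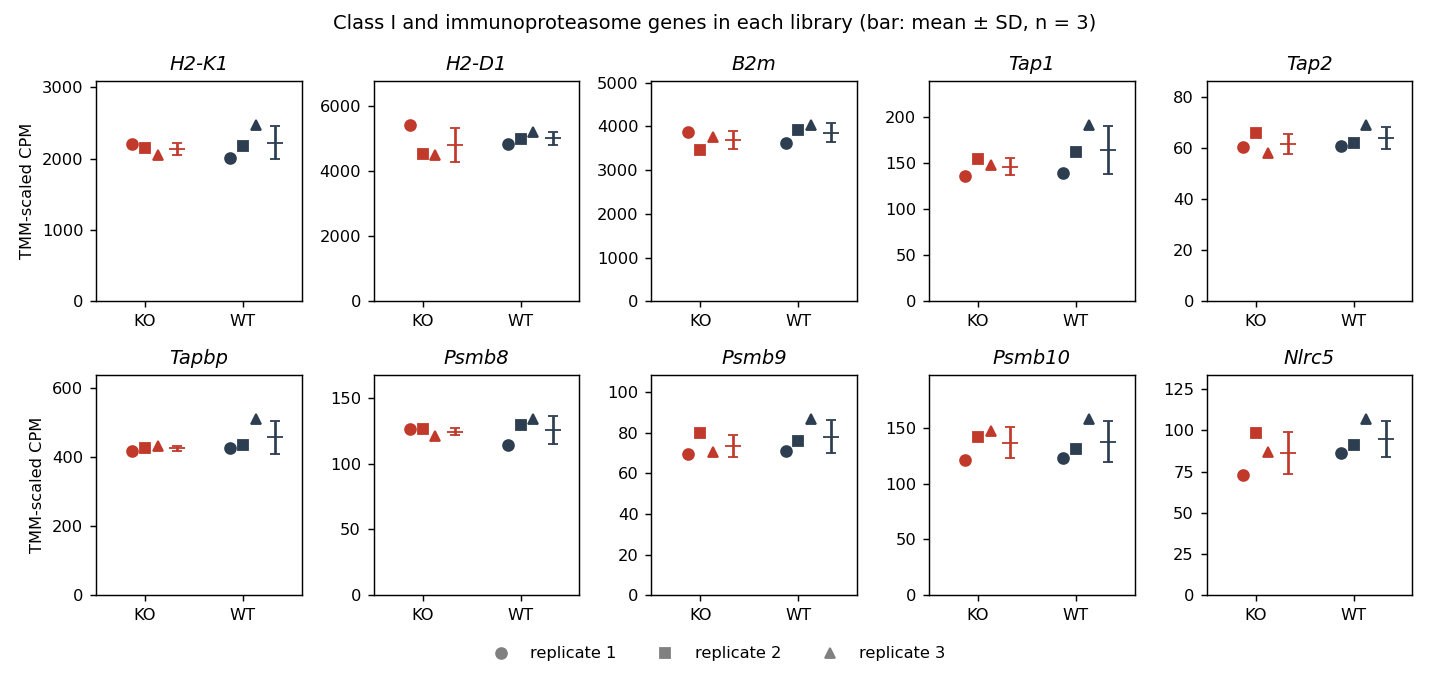
Level of each gene in TMM-scaled CPM (y axis, from 0) in the 3 KO and 3 WT libraries, with the replicate number as the symbol and mean ± SD beside the points. The KO and WT points overlap in all 10 panels, and WT replicate 3 is the highest point in 9 of them.

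The classical heavy chains, which bind the peptide, were among the most abundant transcripts of the set. H2-D1 (ENSMUSG00000073411, chromosome 17, 35262730 to 35267499) had 5407, 4521 and 4487 CPM in KO and 4822, 4973 and 5196 CPM in WT libraries. KO replicate 1 was above every WT library and the other two KO libraries were below every one, so the spread within KO (4805 ± 522 CPM, SD) exceeded the distance to the WT mean (4997 ± 188 CPM, n = 3 each). The log2 fold change was -0.06 (SE 0.08, 95% interval -0.23 to 0.11, adjusted p = 0.979, edgeR). It was -0.15 without KO replicate 1 (adjusted p = 0.483, edgeR) and -0.01 without either KO replicate 2 or KO replicate 3.

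H2-K1 (ENSMUSG00000061232, chromosome 17, 33996017 to 34000347) had 2202, 2148 and 2048 CPM in KO and 2013, 2180 and 2468 CPM in WT libraries. Here the KO libraries lay inside the range of the WT libraries. Its log2 fold change was -0.06 (SE 0.07, 95% interval -0.22 to 0.11, adjusted p = 0.975, edgeR). Heavy chain genes resemble each other. Of all 50-base stretches of the longest coding transcript, 14.3% for H2-D1 and 8.79% for H2-K1 were found exactly in another gene. For stretches of 100 bases the shares were 4.64% and 0%. How reads matching several genes were counted is not given in the sources used here. With 16 class I genes of the H2 region summed to 1 row, of which H2-K1 and H2-D1 gave 88.0% of the counts, the sum was 8562, 7585 and 7460 CPM in KO and 7758, 8165 and 8757 CPM in WT libraries. The sum did not pass either, at -0.06 on the log2 scale with an SE of 0.07 (adjusted p = 0.972, edgeR). It takes in H2-Q2, H2-T3 and H2-M5, which had no counts in any library. It leaves out Gm7030 and Gm11127, which share 100-base stretches with H2-D1.

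B2m (ENSMUSG00000060802, chromosome 2, 122147686 to 122153083) encodes beta-2 microglobulin, the light chain without which class I molecules do not reach the surface. It had 3862, 3462 and 3748 CPM in KO and 3610, 3925 and 4027 CPM in WT libraries. The lowest value was that of KO replicate 2 and the highest that of WT replicate 3, 1.16-fold apart, the narrowest range of the 10 genes. The log2 fold change was -0.06 (SE 0.06, 95% interval -0.20 to 0.08, adjusted p = 0.971, edgeR).

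Of the genes that bring peptides to class I, Tap1 showed the largest difference in the set. Tap1 (chromosome 17, 34187553 to 34197225), a subunit of the peptide transporter, had 136, 154 and 148 CPM in KO and 139, 162 and 191 CPM in WT libraries. WT replicate 1 fell within the KO range and WT replicate 3 stood apart at the top. The log2 fold change was -0.17 (SE 0.10, 95% interval -0.40 to 0.06, adjusted p = 0.961, edgeR), and it was -0.05 without WT replicate 3 and -0.28 without WT replicate 1. The interval covers levels in KO from 75.9% to 104% of those in WT.

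Tap2 (chromosome 17, 34203527 to 34216321), the partner subunit of the transporter, had 60.7, 66.0 and 58.3 CPM in KO and 60.9, 62.1 and 69.1 CPM in WT libraries, a log2 fold change of -0.05 (SE 0.07). Tapbp (chromosome 17, 33915899 to 33929292) encodes tapasin, which holds empty class I molecules beside the transporter. It had 417, 425 and 432 CPM in KO and 425, 434 and 510 CPM in WT libraries. The KO values and those of WT replicates 1 and 2 lay close together, and WT replicate 3 was the only one apart. The log2 fold change of Tapbp was -0.10 (SE 0.07, 95% interval -0.26 to 0.05, adjusted p = 0.966, edgeR) and -0.02 without WT replicate 3.

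The immunoproteasome subunits replace catalytic subunits of the proteasome and favour peptides that fit class I. Psmb8 (LMP7; chromosome 17, 34197721 to 34201454) had 126, 126 and 121 CPM in KO and 114, 129 and 134 CPM in WT libraries (log2 fold change -0.02, SE 0.06, 95% interval -0.15 to 0.12, adjusted p = 0.984, edgeR). Psmb10 (MECL-1; chromosome 8, 105935735 to 105938444) had 121, 142 and 147 CPM in KO and 123, 131 and 158 CPM in WT libraries (-0.01, SE 0.10, 95% interval -0.23 to 0.21, adjusted p = 0.995). The KO libraries of Psmb8 lay inside the WT range, and those of Psmb10 overlapped it but for the lowest, and these were the smallest fold changes of the 10 genes. Psmb9 (LMP2; chromosome 17, 34181987 to 34187764) had 69.7, 79.8 and 70.8 CPM in KO and 71.1, 76.2 and 86.9 CPM in WT libraries (-0.09, SE 0.08, 95% interval -0.27 to 0.09, adjusted p = 0.969). With library totals in place of TMM the sign turned for Psmb8 (0.03) and Psmb10 (0.04), while the median over all genes moved to 0.042.

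Nlrc5 (ENSMUSG00000074151, chromosome 8, 94434356 to 94527272), the transactivator, was the most variable gene of the set. It had 73.0, 98.3 and 87.1 CPM in KO and 86.3, 91.0 and 107 CPM in WT libraries, 1.46-fold between KO replicate 1 and WT replicate 3. The KO libraries alone spanned 0.43 on the log2 scale and the WT libraries 0.30, both more than the difference between the groups (log2 fold change -0.14, SE 0.11, 95% interval -0.38 to 0.11, adjusted p = 0.968, edgeR). Without KO replicate 1 the log2 fold change was -0.03 and without KO replicate 2 it was -0.24.

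Several members share exonic bases with a neighbour, and the strand setting of the counting is not given in the sources used here, so reads in those bases cannot be assigned. Exons of Tap1 and Psmb9 share 212 bases on opposite strands. Psmb8 shares 498 bases and Tap2 165 bases with the antisense gene Gm20496. Tap2 shares 533 bases with Gm15821, Tapbp shares 904 bases with the antisense gene Gm19412, and Nlrc5 shares 78 bases with 9330175E14Rik. Tapbp also shares 149 bases with the coding gene Zbtb22 on the same strand, which no strand setting would tell apart.

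**Figure D2:**
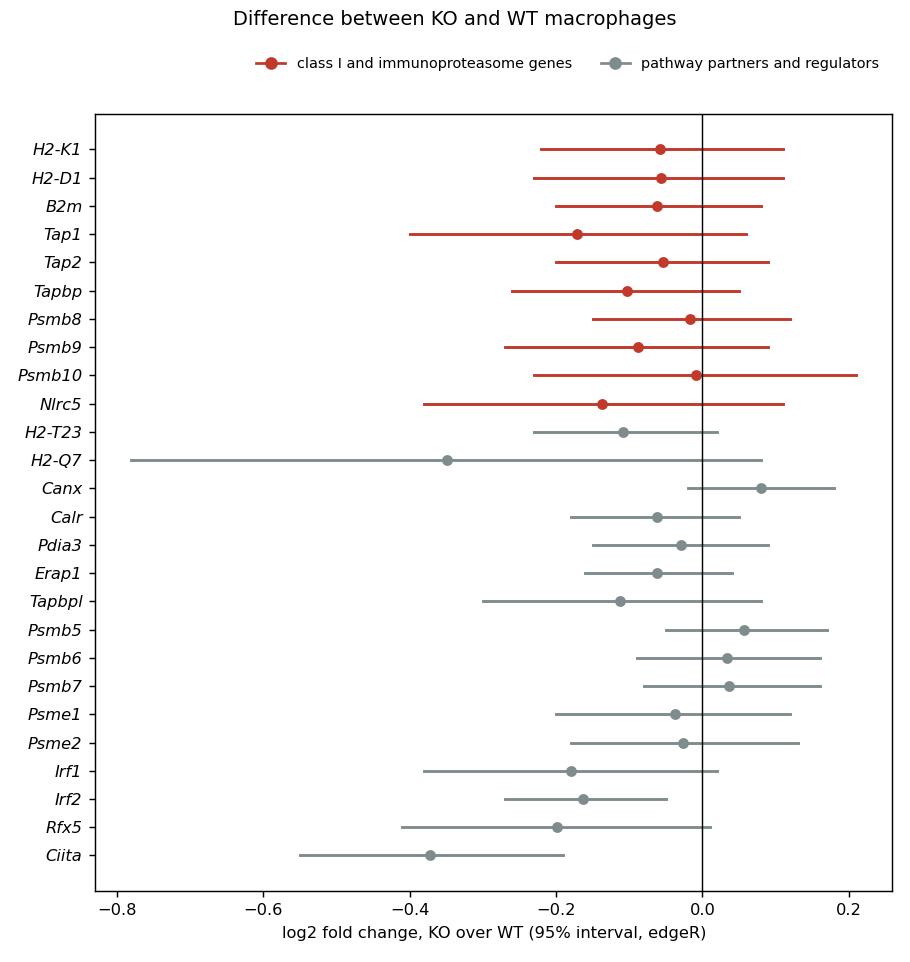
Log2 fold change of KO over WT (x axis) with its 95% interval from edgeR for the 10 class I and immunoproteasome genes and 16 partners and regulators (y axis). All 10 points of the set lie between -0.171 and -0.009 and every one of their intervals holds 0; Psmb8 and Psmb10 turn positive with library totals, which move the median over all genes to 0.042.

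All 10 fitted log2 fold changes were negative, against 50.4% of all tested genes. The members were measured in the same wells and are not independent of each other. The median of the 10 was -0.010 without WT replicate 3 and -0.116 without WT replicate 1. Library totals as the scaling moved the median over all genes to 0.042 and that of the 10 to -0.017, and Psmb8 and Psmb10, positive there, were still below the median of all genes.

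Per length, the light chain and the heavy chains stood far above the rest of the route. In CPM per kilobase of merged exons, B2m had 4291 ± 240 in KO and 4481 ± 253 in WT libraries (SD, n = 3 each), H2-D1 had 1863 ± 202 and 1938 ± 73.1, and H2-K1 had 726 ± 26.6 and 756 ± 78.3. Tapbp followed at 117 ± 2.08 in KO and 126 ± 12.8 in WT, and Psmb10 at 80.1 ± 7.93 and 80.6 ± 10.6 on the same scale. Psmb8 (36.7 ± 0.947 in KO, 37.2 ± 3.07 in WT), Tap1 (26.6 ± 1.67 and 30 ± 4.79), Psmb9 (20.1 ± 1.51 and 21.3 ± 2.20), Tap2 (16.3 ± 1.04 and 16.9 ± 1.18) and Nlrc5 (10.1 ± 1.5 and 11.1 ± 1.26) made up the lower end. The ranges of neighbours in this order did not overlap across the 6 libraries except for Psmb8 and Tap1, where Tap1 in WT replicate 3 (34.9) passed Psmb8 in WT replicate 1 (33.8). The order was the same with the longest transcript, coding or not, as the length, although H2-K1 and Psmb8 then stood at 1138 and 65.2 CPM per kilobase in KO. That length was 2884 bases for Psmb9 and 3911 bases for Tap1. Their longest coding transcripts were shorter, with 1303 and 2904 stretches of 50 bases. Levels by coding length were not computed, and the order of close neighbours such as Tap1 and Psmb9 may differ there.

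Each inducible subunit was set against the constitutive subunit whose place it can take. The ratio of levels per kilobase of Psmb10 to Psmb7 was 4.44, 4.74 and 5.09 in KO and 4.31, 4.89 and 5.54 in WT libraries. By merged exons the inducible transcript was thus the higher one in every library. In CPM without a length, the means of Psmb10 and Psmb7 were 137 against 57.6 in KO and 137 against 56.1 in WT. The size of this ratio therefore depends on the length used. Psmb8 to Psmb5 gave 0.483, 0.458 and 0.417 in KO and 0.438, 0.485 and 0.502 in WT libraries. Psmb9 to Psmb6 gave 0.283, 0.347 and 0.295 in KO and 0.296, 0.312 and 0.401 in WT libraries. By merged exons the inducible transcript was the lower one in both of these pairs, and KO and WT libraries overlapped in all 3 pairs. The length used matters for these values: with the longest transcript, the means were 0.803 in KO and 0.843 in WT for Psmb8 to Psmb5, and 0.202 in KO and 0.220 in WT for Psmb9 to Psmb6. In CPM without a length, Psmb8 was above Psmb5, with means of 124 against 73.2 in KO and 126 against 70.3 in WT. The order of Psmb8 and Psmb5 thus rests on the length used.

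**Figure D3:**
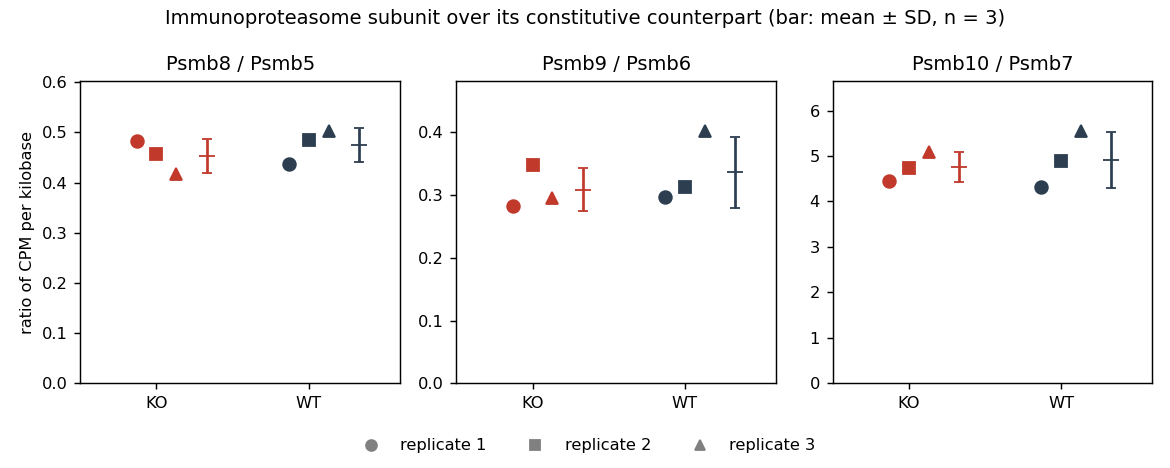
Ratio of CPM per kilobase of merged exons (y axis, from 0) of each inducible subunit to its constitutive counterpart in 3 KO and 3 WT libraries, with mean ± SD beside the points. Psmb10 over Psmb7 lies between 4.31 and 5.54, the other pairs lie below 1, and KO and WT points overlap in each panel.

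The constitutive catalytic subunits did not pass the test either: Psmb5 had a log2 fold change of 0.06 (SE 0.05), Psmb6 of 0.03 (SE 0.06) and Psmb7 of 0.04 (SE 0.05). They were also steadier between libraries, with ranges of 1.11-fold to 1.14-fold over the 6, against 1.16-fold to 1.46-fold for the 10 members. Of 16 core structural and assembly genes of the proteasome, 0 were called, 11 had positive and 5 negative values, and the median was 0.031. An unadjusted p under 0.05 in edgeR's test was reached by 1, Psma6, against 5.44% of all tested genes. The groups did not overlap for 2 of the 16, Psma6 and Psma2, both higher in KO, against 10.8% of all tested genes. Pomp, the chaperone that helps assemble the core particle, stood at 0.03 (SE 0.05). Psme1 and Psme2, the interferon-inducible PA28 activator subunits, stood at -0.04 (SE 0.07) and -0.03 (SE 0.07), and 0 of the 4 activator genes were called.

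Across the 6 libraries, the members had 1 well at the top nearly throughout. WT replicate 3 was the highest of the 6 libraries for 9 of the 10 genes, all but H2-D1, while it was the highest for 18.4% of all tested genes. KO replicate 1 was the lowest for Tap1, Tapbp, Psmb9, Psmb10 and Nlrc5, against 16.4% of all tested genes, yet it was the highest for H2-D1. Tap1 deviated from its own mean over the libraries by -0.18, 0.00 and -0.06 in KO and by -0.15, 0.08 and 0.31 in WT libraries on the log2 scale. B2m deviated by 0.04, -0.12 and -0.01 in KO and by -0.06, 0.06 and 0.10 in WT libraries, so the light chain did not share the low values of KO replicate 1.

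The 30 interferon-stimulated genes examined, all of them tested, showed the same extremes. Their median deviation was -0.37, 0.13 and 0.07 in KO and -0.19, 0.03 and 0.34 in WT libraries on the log2 scale. KO replicate 1 was the lowest library for 29 of the 30 and WT replicate 3 the highest for 28. In edgeR's test of KO against WT, 0 of the 30 were called (0 at an unadjusted p under 0.05 as well), with a median of -0.110. Gbp5, an interferon-induced GTPase, had 23.3, 36.8 and 35.2 CPM in KO and 31.4, 36.2 and 46.8 CPM in WT libraries, lowest and highest in those same wells. The labels give no batch or treatment that separates these wells, and the part of interferon in the order of the class I genes was not tested.

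**Figure D4:**
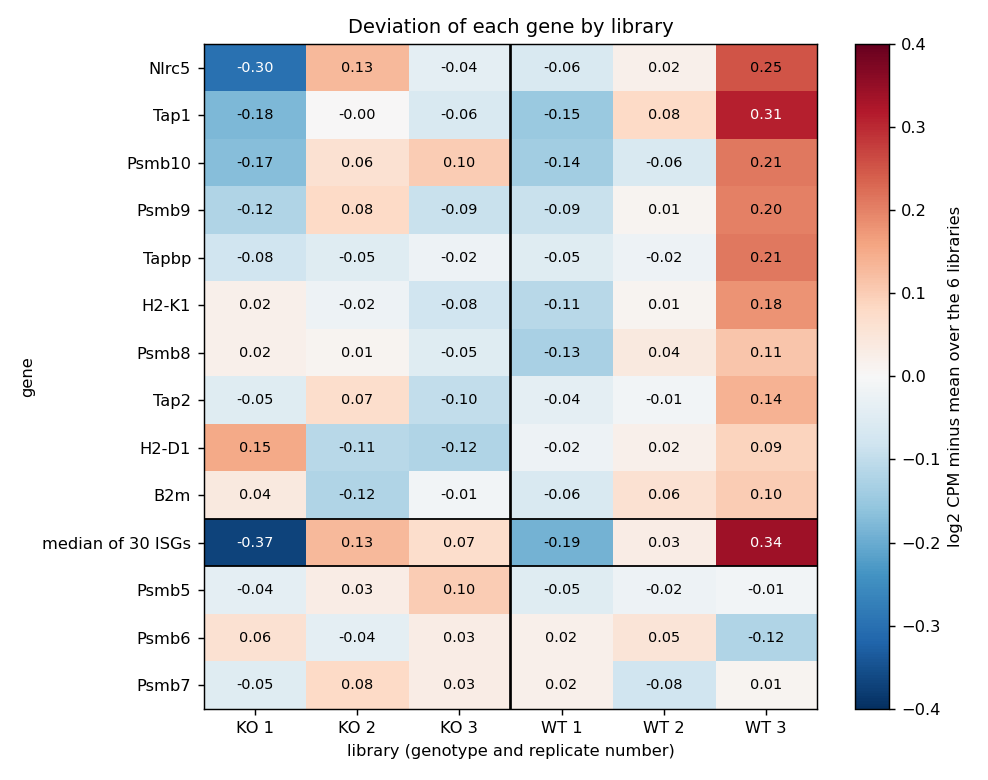
Log2 CPM minus each gene's mean over the 6 libraries (colour and printed value) for the 10 members, the median of 30 interferon-stimulated genes (ISGs) and the constitutive subunits Psmb5, Psmb6 and Psmb7 (rows), by library (columns, KO left of the line). WT replicate 3 is the highest library in all rows of members but that of H2-D1, and Nlrc5 and the interferon-stimulated genes are lowest in KO replicate 1 (-0.30 and -0.37).

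Nlrc5 was compared over the 6 libraries with each of the other 9 members. Pearson's r was 0.90 for Psmb9 (Spearman's rho 0.94), 0.86 for Tap1 (rho 0.94), 0.81 for Psmb10 (rho 0.83), 0.78 for Tap2 (rho 0.83) and 0.73 for Tapbp (rho 0.83). For Psmb9 the exact permutation p was 0.00972 for r and 0.0167 for rho, adjusted over the 9 relations to 0.0875 and 0.075. For Tap1 the exact permutation p was 0.0306 for r and 0.0167 for rho, adjusted to 0.125 and 0.075. None of the 9 passed after adjustment. The relations of Nlrc5 with H2-K1 (r = 0.50, rho = 0.37), Psmb8 (r = 0.43, rho = 0.54), B2m (r = 0.03, rho = 0.26) and H2-D1 (r = -0.29, rho = -0.14) were weaker, and their exact permutation p-values for r ran from 0.303 to 0.96.

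The order of these relations changed without the outer wells. Without KO replicate 1 and WT replicate 3, the libraries farthest from the Nlrc5 median, r was 0.97 for Psmb9 and 0.92 for Tap2, but 0.58 for Tap1, 0.37 for Psmb10 and -0.26 for Tapbp, over 4 libraries. Over the same 4 libraries r was 0.75 for H2-K1, 0.68 for Psmb8, -0.27 for H2-D1 and -0.47 for B2m. These 4 were left by a choice on Nlrc5's own values, and r over 4 libraries is imprecise, so it does not rank the members. With each genotype's mean taken out, r was 0.89 for Psmb9, 0.89 for Psmb10, 0.83 for Tap1, 0.75 for Tap2 and 0.67 for Tapbp. It was 0.43 for H2-K1, 0.43 for Psmb8, -0.18 for B2m and -0.49 for H2-D1. The libraries share their scaling, and the wells may not be independent.

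The genes whose level followed the mean standardised profile of the 10 members most closely, among 9325 protein-coding genes averaging 5 CPM or more, were Cnnm2 (r = 0.983), Tapbpl (0.979), Tmem229b (0.977), Cnp (0.972) and Pdk3 (0.972), over 6 libraries. Tapbpl encodes TAPBPR, a relative of tapasin that edits class I peptides. In all, 14 genes outside the set had an r over 0.95. The members, each a part of the profile, had an r from 0.37 for H2-D1 and 0.60 for B2m to 0.96 for Tap1. The profile is thus not shared evenly by the 10. The genes named are the highest of 9325 over 6 libraries, and no test was made.

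Class I genes beyond the classical heavy chains gave a like picture. Of 18 class Ib and class I-like genes, 15 were tested and 0 were called by edgeR, with 10 negative and 5 positive values and a median of -0.103. An unadjusted p under 0.05 was reached by 2, H2-Q6 and H2-M2, where 5.44% of all tested genes reached it; H2-Q2, H2-T3 and H2-M5 had a count of 0 in every library. H2-T23, which encodes Qa-1, the ligand of NKG2A receptors, had 527, 490 and 500 CPM in KO and 514, 541 and 581 CPM in WT libraries (-0.11 on the log2 scale, SE 0.06, adjusted p = 0.939 in edgeR's test). H2-Q7 and H2-Q6, genes of the Qa-2 group that resemble each other, stood at -0.35 (SE 0.19) and -0.41 (SE 0.15), with 12.3 to 17.5 CPM in KO and 12.9 to 22.4 CPM in WT libraries for H2-Q7. The groups did not overlap for H2-Q6, which had 10.4, 8.39 and 6.39 CPM in KO and 10.7, 11.4 and 11.5 CPM in WT libraries, but its adjusted p was 0.881 in edgeR's test. Of the 15 tested genes, 2 did not overlap, against 10.8% of all tested genes, and the one besides H2-Q6 was higher in KO. H2-M2 had 20.2, 13.0 and 14.3 CPM in KO and 16.7, 23.6 and 22.1 CPM in WT libraries, which overlapped. It stood at -0.39 (SE 0.17, adjusted p = 0.908 in edgeR's test) and was called lower in KO by edgeR without a filter (adjusted p = 0.0399). H2-T22 stood at -0.11 (SE 0.08), H2-T24 at -0.14 (SE 0.07), H2-Q4 at -0.09 (SE 0.09) and H2-M3, which presents formylated peptides, at 0.05 (SE 0.07).

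Of 14 genes of peptide loading and trimming, 13 were tested and 0 were called, with a median of -0.021. Canx and Calr, the lectin chaperones of new heavy chains, stood at 0.08 (SE 0.04) and -0.06 (SE 0.05). The groups did not overlap for 2 of the 13, Canx and the peptidase gene Npepps, both higher in KO, against 10.8% of all tested genes. Pdia3, the oxidoreductase of the loading complex, stood at -0.03 (SE 0.05), and Erap1, the peptidase that trims peptides in the endoplasmic reticulum, at -0.06 (SE 0.04). Tapbpl stood at -0.11 (SE 0.08). Of 11 genes of cross-presentation, 0 were called, and the median was -0.006.

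Among 18 genes for the transcription of class I, edgeR's test called 0. Of these, 14 were negative (50.4% of all tested genes were) and 2 had an unadjusted p under 0.05, against 5.44% of all tested genes. Irf2, an interferon regulatory factor that occupies class I promoters, had 62.8, 65.6 and 61.5 CPM in KO and 68.1, 71.5 and 73.1 CPM in WT libraries, which did not overlap. KO thus lay below WT by a log2 fold change of -0.16 (SE 0.05), at an adjusted p of 0.755 in edgeR's test. Irf1, the activator induced by interferon-gamma, stood at -0.18 (SE 0.09), and Rfx5, which binds the X box, at -0.20 (SE 0.09).

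Ciita, the class II transactivator and the counterpart of Nlrc5, was the other gene with an unadjusted p under 0.05. It had 85.6, 72.0 and 78.9 CPM in KO and 97.4, 95.5 and 113 CPM in WT libraries, and the groups did not overlap. The fold change, -0.37 on the log2 scale with an SE of 0.08, did not pass in edgeR's test (adjusted p = 0.344), but Ciita was called lower in KO by DESeq2's Wald test (adjusted p = 0.00722) and by edgeR without a filter (adjusted p = 6.51e-05). The difference between Ciita and Nlrc5 in their response was not tested. Of 9 genes for interferon receptors, kinases and their regulators, edgeR called 0. An unadjusted p under 0.05 was reached by 1 of them, against 5.44% of all tested genes. This was Jak2, a kinase of the interferon-gamma receptor, with 55.2, 58.0 and 59.6 CPM in KO and 64.1, 60.9 and 65.2 CPM in WT libraries (-0.14 on the log2 scale, SE 0.05, adjusted p = 0.881 in edgeR's test). Its groups did not overlap, as was so for 10.8% of all tested genes. Socs1, a feedback inhibitor of these kinases, stood at 0.32 (SE 0.16), and Ifngr1 (0.00, SE 0.04) and Ifngr2 (0.01, SE 0.04) had values near 0.

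Most nucleated cells express class I genes, and in bulk RNA fewer cells of a type cannot be told apart from less RNA per cell. Markers of other marrow cells differed between the wells in both directions. S100a8, a neutrophil and monocyte calcium-binding protein, had 184, 165 and 174 CPM in KO and 111, 88.7 and 123 CPM in WT libraries, which did not overlap (0.70 on the log2 scale, SE 0.10, adjusted p = 0.0521 in edgeR's test). The summed level of 10 neutrophil markers was 766 to 828 CPM in KO and 445 to 659 CPM in WT libraries, that of 10 dendritic cell markers was 71.5 to 96.4 CPM in KO and 87.8 to 109 CPM in WT libraries, and that of 11 markers of T, B and NK cells was 10.7 to 14.6 CPM in KO and 14.1 to 18.1 CPM in WT libraries. The B cell gene Ms4a1, which encodes CD20, had 0.476, 0.632 and 1.03 CPM in KO and 1.71, 1.52 and 2.19 CPM in WT libraries, which did not overlap (-1.36 on the log2 scale, SE 0.31, adjusted p = 0.446 in edgeR's test). Cd79a, of the B cell receptor complex, stood at -1.01 (SE 0.33). The T cell gene Cd3e was at 0 in KO replicate 3 and WT replicate 3 and at most 9 counts elsewhere. The 8 mast cell and basophil markers summed to 13.1 to 20.4 CPM in KO and 20.2 to 29.1 CPM in WT libraries, with Cma1 at 0 in every library, and 7 stromal markers to 25.2 to 50.5 CPM in KO and 16.5 to 69.4 CPM in WT libraries. With the filter, TMM scaling, genotype as the only term and all 6 libraries, edgeR's default fit called none of these other-cell markers. S100a8 was called higher in KO by edgeR with library totals (adjusted p = 0.0238), with bias-corrected dispersions (0.0468), with a replicate block (0.0114, where S100a9 was called too) and without WT replicate 3 (0.0213), and by limma-voom (0.0482). DESeq2's Wald test called S100a8, S100a9 and Lcn2 higher and Mpo lower in KO. Without a filter, edgeR called S100a8, S100a9, Ngp, Ltf and Lcn2 higher and Mpo, Cpa3, Prss34, Ms4a1, Siglech and Fscn1 lower in KO. The part of all these markers in the class I values was not tested.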

How the data were processed

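The authors deposited whole-number read counts by Ensembl gene, not normalized, for 6 libraries, 3 KO and 3 WT. The submitters' processing notes name HISAT2, featureCounts and GRCm38, with no versions, and the labels' protocols name TRIzol lysis and a SMARTER mRNA kit. Symbols, positions and exon lengths came from GENCODE M21 on the same build (55240 of 55421 IDs matched).

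TMM scaling and the filterByExpr filter were applied in edgeR 4.0.16 (R 4.3.3), and KO was compared with WT by the two-sided quasi-likelihood test, genotype being the only term, with Benjamini-Hochberg adjustment over 13588 genes and a threshold of 0.05. Standard errors came from the F statistic and intervals are at 95%. Deviations used log2(CPM + 0.5). The test was also run on counts simulated from the means and dispersions of these data. The changes planted there were larger than the members' differences, so it does not show what the test finds at that size. Its outcome is not reported here. Alternatives used DESeq2 1.42.0, limma 3.58.1, other scalings and filters, a replicate block and each library left out.

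The members and gene lists were chosen with earlier results of these data known. Named were all members, Tmem175, Lyz2, fixed partners and regulators, and up to 3 genes of the smallest p in other lists; Adgre1, Cd3e and Cma1 were named outside this rule, after their values were seen, and 1 gene of the rule is not reported here. Total counts of 24179548 to 31542741 limit precision for genes of few counts. Pairs of libraries of a group differed by more than sampling noise (chi-square over its degrees of freedom 3.66 to 17.6). Same-numbered KO and WT libraries had correlations of their deviations of 0.108, -0.16 and 0.047 over all tested genes. With 3 libraries a group these values cannot exclude a pairing by number.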

Additional observations from a re-analysis of the deposited data

How the results depend on the processing

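None of the 10 class I and immunoproteasome genes was called in any of the 162 values from 17 alternatives, where the lowest adjusted p was 0.483. The sign turned in 9 of those values. Of these, 2 came with library totals, Psmb8 (0.0265) and Psmb10 (0.0365), where the median over all genes was itself 0.042, above both. With 1 library left out, log2 fold changes ran from -0.082 to 0.0331 for Psmb8, from -0.0799 to 0.102 for Psmb10, from -0.124 to 0.0252 for H2-K1 and from -0.103 to 0.00528 for Tap2, each highest without WT replicate 3, and from -0.148 (without KO replicate 1) to -0.00896 for H2-D1, and the median of the 10 ran from -0.116 to -0.010. Over all genes, 2 were higher and 12 lower in KO. These counts were 10 and 30 with the DESeq2 test, 39 and 112 without a filter, 0 and 5 among genes averaging 10 CPM or more, and 0 to 2 and 4 to 10 with 1 library left out; the cause was not tested. With the replicate number as a block, 3 were higher and 14 lower, 0 of the 10 members were called and their median was -0.062. The SE went from 0.0969 to 0.0518 for Psmb10, from 0.101 to 0.0667 for Tap1 and from 0.109 to 0.0759 for Nlrc5 with this block. For Tap2 it rose from 0.0657 to 0.0666. No replicate number correlated best with itself across the genotypes over all tested genes, which cannot exclude a pairing. Between 3 wells a group, differences of the size found here could not be told from the spread. Each member had at least 1458 counts in every library.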
